A study of Sus scrofa with 9 samples.

Results

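The genes of 3 vasoactive systems, endothelin, nitric oxide and angiotensin, were followed in the myocardium of porcine hearts donated after circulatory death (DCD). They were chosen by gene name from a list of 9: EDN1, EDNRA, EDNRB, ECE1, NOS3, NOS2, NOS1, AGTR1 and ACE. Of these, 8 were found among the 25149 genes of the expression table, 7 had at least 1 TPM in at least 3 hearts and were tested together with the other genes of that level (11782 in all), and NOS1 was below that level. The table had no row named EDN1, the gene of the endothelin-1 peptide, which was therefore not analysed here.

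Hearts came from 9 female American Yorkshire pigs aged 4 to 6 months, 3 in each of 3 groups, and all hearts went through 15 min of warm ischemia before procurement. Group 1 (NRP + HOPE 24 h, pigs 27, 28 and 30) received normothermic regional perfusion (NRP), a warm extracorporeal circulation of the donor's own organs before removal, over 60 min, and then hypothermic oxygenated perfusion (HOPE) at 8 °C over 24 h. Group 2 (NRP + SCS 2 h, pigs 24, 25 and 29) received the same NRP, followed by static cold storage (SCS) at 4 °C over 2 h. Group 3 (No NRP + HOPE 2 h, pigs 31, 33 and 34) was procured without NRP and received HOPE at 8 °C over 2 h. Every heart was then reperfused for 2 h by normothermic machine perfusion (NMP) in an unloaded bench-top circuit primed with donor blood, and RNA came from 1 apex biopsy, flash frozen at the end of NMP, so the values describe tissue after warm reperfusion outside the body. Group 1 and Group 2 differed in storage method, duration and temperature, Group 2 and Group 3 in NRP and in storage method and temperature, and Group 1 and Group 3 in NRP and in the duration of storage; within each of these pairs, the parts played by the factors cannot be told apart.

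Endothelin-1 is cut from its precursor by endothelin-converting enzyme 1 (ECE1) and constricts vessels mainly through the endothelin A receptor (EDNRA) on smooth muscle, whereas the endothelin B receptor (EDNRB) of endothelial cells promotes nitric oxide release and clears the peptide. Nitric oxide relaxes smooth muscle and is made by endothelial (NOS3), inducible (NOS2) and neuronal (NOS1) nitric oxide synthases. Angiotensin-converting enzyme (ACE), which sits on the endothelial surface, forms angiotensin II and degrades bradykinin, and the type 1 angiotensin receptor (AGTR1) mediates constriction.

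Expression is given in TPM, in which reads on a gene are scaled for its length and to a common total, so that genes can be compared with each other within a heart. The read depth of each heart is unknown, so the error of a single value cannot be given. The spread among the 3 hearts of a group is shown in its place and includes differences between pigs. The hearts were labelled as cardiomyocytes but hold whole myocardium. The cardiomyocyte gene TNNT2, a troponin, lay between 7220 and 15218 TPM, and the endothelial gene PECAM1 between 99.7 and 234 TPM. In these biopsies, fewer cells of a type and less RNA per cell cannot be told apart. The 13 protein-coding genes of the mitochondrial genome held between 38.2% of TPM in pig 30 and 55.35% in pig 27, both of Group 1.

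The 8 listed genes ranged from abundant to barely listed. ECE1 had the highest mean over the 9 hearts, 55.4 TPM, and NOS3 followed with 48.7 TPM, which placed them at percentiles 90.1 and 88.7 of all genes tested. EDNRB had a mean of 29.8 TPM, ACE of 27.9 TPM and EDNRA of 14.5 TPM. NOS2 and AGTR1 were low, with means of 3.93 and 3.39 TPM, at percentiles 35 and 31.3. NOS1 was listed at 0 in 8 hearts and at 0.0181 TPM in pig 25.

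Neighbours in this order were compared within hearts on the log2(TPM + 1) scale, as a description, since the order was read from the same 9 hearts. ECE1 exceeded NOS3 in 7 of 9 hearts, with a mean difference of 0.18 that was smaller than its spread between hearts (SD 0.504). NOS3 exceeded EDNRB in 8 of 9 hearts, by a mean of 0.71 (SD 0.712). EDNRB and ACE did not differ beyond their spread (mean difference 0.02, SD 0.595), nor did NOS2 and AGTR1 (mean difference 0.02, SD 0.743). ACE exceeded EDNRA by a mean of 0.89 (SD 0.388) and EDNRA exceeded NOS2 by a mean of 1.80 (SD 0.541), each in 9 of 9 hearts.

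**Figure D1:**
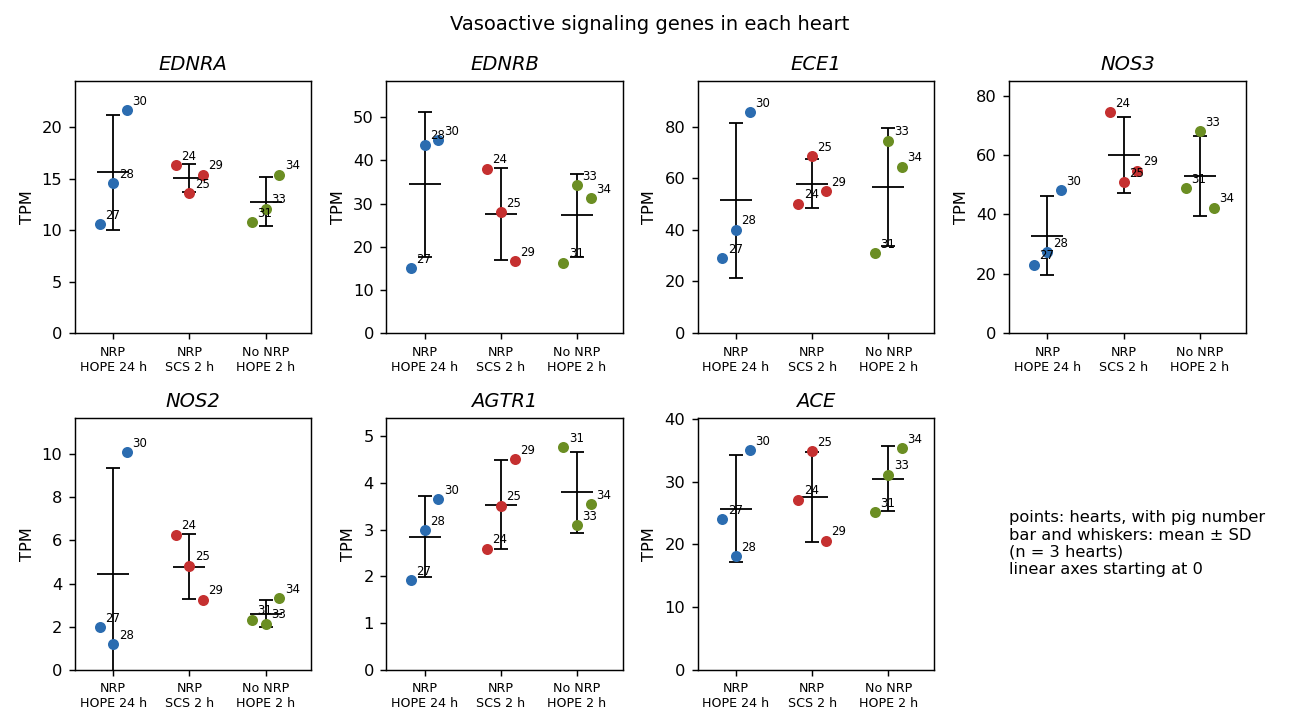
TPM (vertical axes, linear, starting at 0) of the 7 tested genes in each heart, by group; points are hearts with their pig numbers, and bars and whiskers are the mean ± SD of 3 hearts, with the whisker of NOS2 in Group 1 cut at 0. NOS3 is the gene whose Group 1 hearts (23.1 to 48.2 TPM) all lie below the Group 2 hearts (50.9 to 74.5 TPM).

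Among the endothelin genes, ECE1 read 28.9, 40.1 and 85.6 TPM in pigs 27, 28 and 30 of Group 1. It read 50.2, 68.6 and 55 TPM in pigs 24, 25 and 29 of Group 2, and 31, 74.5 and 64.4 TPM in pigs 31, 33 and 34 of Group 3. The 3 groups overlapped, and Group 1 alone held both the lowest and the highest heart, a ratio of 2.96. The limma estimate of the log2 fold change was -0.30 for Group 1 against Group 2 (95% interval -1.18 to 0.57), -0.11 for Group 3 against Group 2 (-0.99 to 0.76) and -0.19 for Group 1 against Group 3 (-1.06 to 0.68).

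EDNRA, the constrictor receptor, read 10.6, 14.6 and 21.7 TPM in Group 1, 16.3, 13.6 and 15.4 TPM in Group 2, and 10.8, 12.1 and 15.4 TPM in Group 3, in the same order of pigs. EDNRB read 15, 43.6 and 44.7 TPM in Group 1, 38.1, 28 and 16.6 TPM in Group 2, and 16.3, 34.3 and 31.2 TPM in Group 3. Each group thus held 1 heart with 15 to 16.6 TPM of EDNRB (pigs 27, 29 and 31) and others at 28 TPM or more, and the groups overlapped for both receptors. The estimates against Group 2 were -0.01 (-0.67 to 0.66) for EDNRA and 0.24 (-0.72 to 1.19) for EDNRB in Group 1, and -0.24 (-0.90 to 0.43) and -0.01 (-0.96 to 0.95) in Group 3. Between Group 1 and Group 3 they were 0.23 (-0.44 to 0.90) for EDNRA and 0.25 (-0.71 to 1.20) for EDNRB.

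EDNRB exceeded EDNRA in 9 of 9 hearts, by a mean of 0.91 on the log2(TPM + 1) scale (SD 0.461). The exact sign-flip p was 0.00391, two-sided, the smallest that 9 hearts allow, and 0.00781 when adjusted together with the neighbouring pairs. The balance of the receptors varied among hearts of 1 group: EDNRA minus EDNRB was -0.47, -1.51 and -1.01 in Group 1, -1.18, -0.996 and -0.10 in Group 2, and -0.55, -1.43 and -0.97 in Group 3. Pig 29 of Group 2 had the receptors nearest to each other, at 15.4 TPM of EDNRA and 16.6 TPM of EDNRB. Group means of the balance differed by -0.24 between Groups 1 and 2, -0.23 between Groups 3 and 2 and -0.02 between Groups 1 and 3, with exact permutation p-values of 0.6, 0.7 and 0.9 (two-sided; 0.1 is the smallest p that 3 hearts against 3 allow).

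NOS3, the endothelial synthase, read 23.1, 27.3 and 48.2 TPM in Group 1, with a mean of 32.9 ± 13.5 TPM (SD, n = 3). It read 74.5, 50.9 and 54.7 TPM in Group 2 (60.1 ± 12.7 TPM) and 48.9, 68.1 and 42.2 TPM in Group 3 (53.1 ± 13.5 TPM). All 3 Group 1 hearts were below all 3 Group 2 hearts, with a gap between 48.2 TPM in pig 30 and 50.9 TPM in pig 25, while Group 3 overlapped with both. The ratio of mean TPM of Group 1 to Group 2 was 0.547.

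The log2 fold change of NOS3 in Group 1 against Group 2 was -0.90 (limma, SE 0.325, 95% interval -1.60 to -0.20, unadjusted p = 0.0152). It did not pass Benjamini-Hochberg adjustment over all genes tested (adjusted p = 0.849, limma), and the exact permutation test gave its smallest possible p of 0.1. Against Group 3, NOS3 of Group 1 differed by -0.72 (limma, SE 0.325, 95% interval -1.42 to -0.02, unadjusted p = 0.045, adjusted p = 0.826), with overlapping groups and an exact permutation p of 0.2. Group 3 against Group 2 differed by -0.18 (limma, 95% interval -0.88 to 0.52, unadjusted p = 0.58). These comparisons share their groups, so that the low values of the same 3 Group 1 hearts enter both of the first estimates.

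Leaving out 1 heart at a time, the NOS3 difference between Groups 1 and 2 stayed between -1.21 and -0.69, but without pig 27, 28 or 24 no member had an unadjusted limma p under 0.05 in that comparison. For Groups 1 and 3 the difference stayed between -1.02 and -0.51, and no member had an unadjusted limma p under 0.05 without pig 27, 28, 24, 25, 29, 31 or 33.

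**Figure D2:**
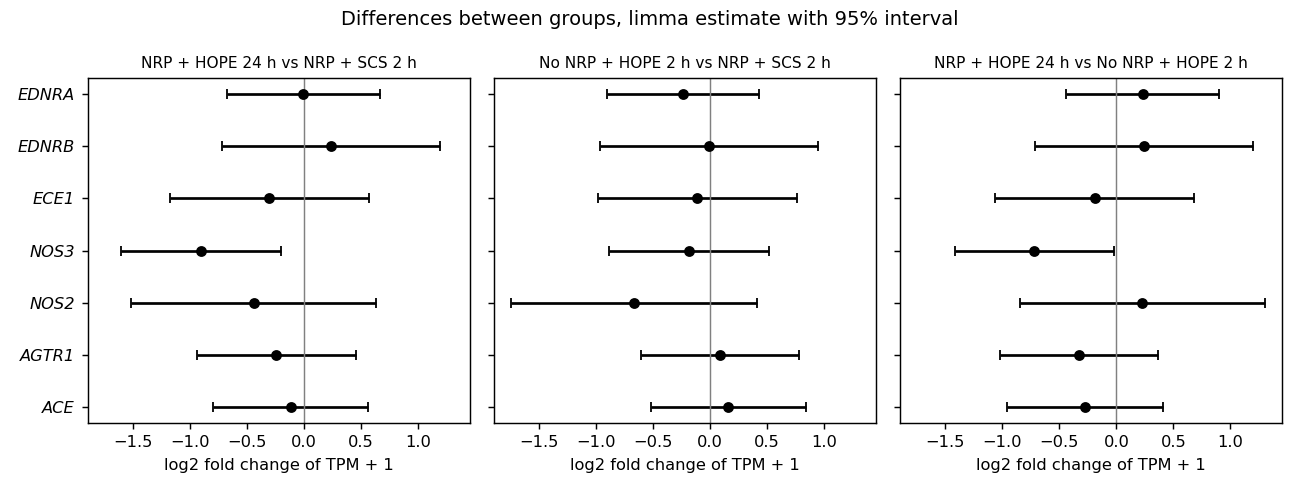
Log2 fold change of TPM + 1 (horizontal axes) for the 7 tested genes in the 3 comparisons between groups; points are limma estimates and bars their 95% intervals. Intervals lie below 0 for NOS3 in Group 1 against Group 2 (left, -1.60 to -0.20) and Group 1 against Group 3 (right, -1.42 to -0.02), and the others include 0.

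NOS2, the synthase induced by cytokines in macrophages and other cells, read 1.98, 1.18 and 10.1 TPM in Group 1. It read 6.27, 4.83 and 3.25 TPM in Group 2, and 2.32, 2.14 and 3.31 TPM in Group 3. Pig 30 was 8.57 times as high as pig 28 of the same group, and pig 34 of Group 3 alone stood above the lowest Group 2 heart, pig 29. The limma estimate for Group 3 against Group 2 was -0.67 (95% interval -1.74 to 0.41, unadjusted p = 0.203), for Group 1 against Group 2 -0.44 (-1.52 to 0.64) and for Group 1 against Group 3 0.23 (-0.85 to 1.30).

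Markers of leukocytes that can carry NOS2 were read beside it. The 4 of 7 macrophage markers listed summed to 54.9 to 129 TPM in Group 1, 66.3 to 175 TPM in Group 2 and 96.4 to 208 TPM in Group 3. The group means of C1QA were 64.4, 68.9 and 115 TPM, and in Group 3 against Group 2 its limma estimate of 0.95 was positive. Those of CSF1R (-0.31), CD68 (-0.47) and MRC1 (-0.32) were negative. MRC1 was lower without overlap there, as were 10.3% of all genes tested. In Group 1 against Group 2 it was also lower without overlap (-0.45), as were 7.32% of all genes tested. The 3 of 5 neutrophil markers listed summed to 0.357 to 3.89 TPM in Group 1, 2.02 to 13.2 TPM in Group 2 and 0 to 0.343 TPM in Group 3, and CSF3R, a receptor of neutrophils and other myeloid cells, was listed at 0 in all 9 hearts. The smooth muscle gene MYH11 was listed at 0 in all 9 hearts too, although ACTA2 of the same cells lay between 15.8 and 88.1 TPM, so a 0 throughout this table may be a failed estimate. The neutrophil sum of every Group 3 heart was thus below that of every Group 2 heart, where 10.3% of all genes tested were lower without overlap. Only 1 of these markers was tested, S100A9, a low gene at 0 to 8.02 TPM. Its limma estimate was -2.17 in Group 3 against Group 2 (unadjusted p = 0.000389, adjusted p = 0.14). In Group 1 against Group 2 it was -1.35 (limma, unadjusted p = 0.0117, adjusted p = 0.792), with overlap. The part of neutrophils in the NOS2 values was not tested.

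Of the angiotensin genes, ACE read 24, 18.1 and 35 TPM in Group 1, 27.1, 34.9 and 20.6 TPM in Group 2, and 25.1, 31.1 and 35.3 TPM in Group 3. AGTR1 read 1.92, 2.98 and 3.65 TPM in Group 1, 2.59, 3.51 and 4.5 TPM in Group 2, and 4.76, 3.09 and 3.54 TPM in Group 3. All groups overlapped for both genes, and within a group the highest heart was at most 1.93 times the lowest. Against Group 2, the limma estimates in Group 1 were -0.12 (95% interval -0.80 to 0.57) for ACE and -0.24 (-0.94 to 0.45) for AGTR1, and in Group 3 they were 0.16 (-0.52 to 0.84) and 0.09 (-0.61 to 0.78). Between Group 1 and Group 3 they were -0.28 (-0.96 to 0.41) for ACE and -0.33 (-1.02 to 0.37) for AGTR1.

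Over the 7 tested members, 0 passed an adjusted p of 0.05 (limma, Benjamini-Hochberg) in any comparison, where 0.0255% of all genes tested passed it in Group 1 against Group 2 and 0.0509% in each of the other comparisons. At an unadjusted limma p under 0.05, the members counted 1 (NOS3), 0 and 1 (NOS3) in Group 1 against Group 2, Group 3 against Group 2 and Group 1 against Group 3, in that order. Of all genes tested, 4.97%, 7.22% and 6.01% had such a p, and 3.14%, 4.65% and 3.23% had it with a lower level in the group named first. NOS3 was lower in Group 1 both times. Groups without overlap were counted in 1 member, NOS3 lower in Group 1 than in Group 2, where 9.82% of all genes tested did not overlap and 7.32% were lower without overlap. In Group 3 against Group 2 and Group 1 against Group 3, 0 members had groups without overlap, against 14.7% (4.44% higher, 10.3% lower) and 7.48% (2.97% higher, 4.51% lower) of all genes tested. The median log2 fold change of the members was -0.24, -0.11 and -0.19 in the 3 comparisons, and that of all genes tested was -0.12, -0.07 and -0.03.

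Hearts of 1 group stood at opposite ends of the range. Pig 27 had the lowest value of the 9 hearts in 5 of the 7 members (EDNRA, EDNRB, ECE1, NOS3 and AGTR1), and pig 28 in the other 2. Pig 30, of the same group, had the highest value in 4 (EDNRA, EDNRB, ECE1 and NOS2). In TPM as deposited, Group 1 had the widest ratio of highest to lowest heart in each of the 7 members. These ranks depended on the scaling: with levels scaled by the median of ratios, which sets the hearts level on their typical gene, pig 27 was lowest in 1 member (ECE1), pig 30 was highest in 2 (EDNRA and NOS2), and Group 1 was the widest in 2 (EDNRB and NOS2).

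The mitochondrially encoded share of TPM ran alongside these ranks. It was 55.35%, 54.66% and 38.2% in Group 1, 48.55%, 49.49% and 52.7% in Group 2, and 54.95%, 49.1% and 44.81% in Group 3. Over the 9 hearts, ECE1 was lower where the share was higher (Pearson r = -0.82, exact permutation p = 0.00479, adjusted over 21 relations 0.0482; Spearman rho = -0.82, exact permutation p = 0.0108, adjusted 0.0898). Without the 2 hearts farthest from the median share (pigs 27 and 30), r for ECE1 was -0.75, and after centring each group on its mean it was -0.87. EDNRA gave r = -0.80 (exact permutation p = 0.00917, adjusted 0.0482; rho = -0.83, exact permutation p = 0.00827, adjusted 0.0898), but -0.41 without those 2 hearts, so this relation rested on them. NOS2 gave r = -0.81 (exact permutation p = 0.00866, adjusted 0.0482; rho = -0.77, exact permutation p = 0.0214, adjusted 0.0898) and -0.55 without them.

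ACE gave r = -0.76 (exact permutation p = 0.0146, adjusted 0.0612; rho = -0.78, exact permutation p = 0.0172, adjusted 0.0898), and -0.81 without those 2 hearts. EDNRB gave r = -0.62 (exact permutation p = 0.0703, adjusted 0.148; rho = -0.70, exact permutation p = 0.0433, adjusted 0.151), and -0.37 without them. NOS3 gave r = -0.38 (exact permutation p = 0.311, adjusted 0.385; rho = -0.35, exact permutation p = 0.359, adjusted 0.443), and -0.37 without them. AGTR1 gave r = -0.13 (exact permutation p = 0.731, adjusted 0.767; rho = -0.15, exact permutation p = 0.708, adjusted 0.708), and 0.41 without them. After centring each group on its mean, r was -0.88 for EDNRA, -0.63 for EDNRB, -0.91 for NOS2, -0.82 for ACE, -0.65 for NOS3 and -0.17 for AGTR1. Differences between the members' correlations were not tested.

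TPM share 1 total, so a large share of 1 group of genes lowers the others. With the mitochondrially encoded genes taken out of the total, 0 of the 7 relations had an adjusted p under 0.05. The value for ECE1 was then r = -0.70 (exact permutation p = 0.0351, adjusted 0.105; rho = -0.77, exact permutation p = 0.0214, adjusted 0.0898), and -0.62 without pigs 27 and 30. NOS2 gave r = -0.73 (exact permutation p = 0.0241, adjusted 0.0845; rho = -0.62, exact permutation p = 0.0857, adjusted 0.2), and -0.45 without them. EDNRA gave r = -0.47 (exact permutation p = 0.207, adjusted 0.334; rho = -0.50, exact permutation p = 0.178, adjusted 0.339), and 0.093 without them. ACE gave r = -0.45 (exact permutation p = 0.227, adjusted 0.341; rho = -0.43, exact permutation p = 0.25, adjusted 0.404), and -0.66 without them. For EDNRB, NOS3 and AGTR1, r was -0.43, -0.11 and 0.24 (exact permutation p = 0.249, 0.784 and 0.534, with rho = -0.53, -0.30 and 0.27, exact permutation p = 0.148, 0.437 and 0.493). Without pigs 27 and 30 it was -0.19, -0.15 and 0.63. After centring each group on its mean, the rescaled r was -0.76 for ECE1, -0.865 for NOS2, -0.59 for EDNRA and -0.52 for ACE. It was -0.43 for EDNRB, -0.28 for NOS3 and 0.26 for AGTR1.

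**Figure D3:**
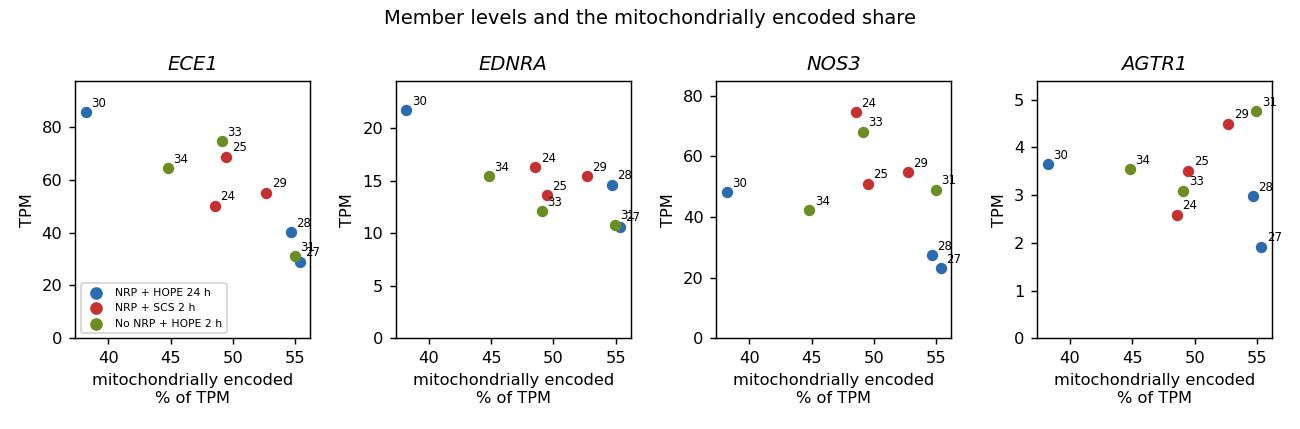
TPM (vertical axes, starting at 0) of ECE1, EDNRA, NOS3 and AGTR1 against the mitochondrially encoded percent of TPM (horizontal axes, not starting at 0); points are hearts, coloured by group and labelled with pig numbers. ECE1 runs from 85.6 TPM in pig 30 at 38.2% to 28.9 TPM in pig 27 at 55.35%. The NOS3 values of the Group 1 hearts with the highest shares, pigs 27 and 28, are the lowest of the 9. Pig 31 of Group 3, with a share of 54.95%, is at 48.9 TPM of NOS3.

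The median-of-ratios scaling had factors from 0.7277 in pig 27 to 1.327 in pig 30 and moved the median change over all genes tested, on the log2 scale, from -0.12 to 0.002 in Group 1 against Group 2. The NOS3 levels after this scaling were 31.7, 30.1 and 36.3 in Group 1, 69.8, 48.5 and 51.6 in Group 2, and 63.4, 63.9 and 36 in Group 3. The Group 1 hearts then lay closer together than before and still below every Group 2 heart, and pig 34 of Group 3 lay within the range of Group 1. The scaled difference of NOS3 between Groups 1 and 2 was -0.76 on the log2 scale (limma, adjusted p = 0.427), against -0.90 unscaled.

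EDNRB, ECE1, NOS3 and ACE are made by endothelial cells, so endothelial markers were read beside them. Of 17 markers, 12 were listed, and their sum was 473.7, 670.5 and 989 TPM in Group 1, 1008, 849.7 and 948.9 TPM in Group 2, and 506.3, 1027 and 936.7 TPM in Group 3. Pigs 27 and 31 were the lowest. In Group 1 against Group 2, 11 of the 12 markers had a negative log2 fold change, 0 of them at an unadjusted limma p under 0.05, and 2 (TEK and CLEC14A) had no overlap between groups, both lower in Group 1, where 4.97% of all genes tested had such a p and 7.32% were lower without overlap. One marker, MMRN2, ranged from 0 to 26.3 TPM among hearts of Group 3 alone.

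The level of each of these 4 members was then taken relative to the mean log2(TPM + 1) of the 12 markers in the same heart. For NOS3 the difference was -0.28, -0.59 and -0.06 in Group 1, 0.57, 0.03 and -0.01 in Group 2, and 0.56, 0.41 and -0.44 in Group 3. Group 1 thus lay below Group 2 without overlap on this scale as well, though pigs 30 and 29 were only -0.06 and -0.01, and Group 3 spanned both. The group means were -0.31 ± 0.27 in Group 1 and 0.20 ± 0.32 in Group 2 (SD, n = 3 each), a difference of -0.50 with an exact permutation p of 0.1, the smallest that 3 hearts against 3 allow. With a pseudocount of 0.1 in place of 1, which gives values near 0 more weight, the exact permutation p was 0.3. The marker MMRN2, part of the mean, read 0.37 TPM in pig 30 and 6.57 TPM in pig 29. The part of the endothelial level in the NOS3 values was not tested beyond this.

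For the other endothelial members the relative values overlapped between all groups. EDNRB relative to the markers averaged -0.32 ± 0.48 in Group 1, -0.96 ± 0.66 in Group 2 and -0.80 ± 0.21 in Group 3 (SD, n = 3 each; exact permutation p between 0.2 and 0.9). ECE1 averaged 0.25, 0.15 and 0.21, and ACE -0.63, -0.91 and -0.59, with exact permutation p-values between 0.4 and 1. Across the 9 hearts, ECE1 was higher where the marker mean was higher (Pearson r = 0.86, exact permutation p = 0.00314, adjusted over the 21 relations 0.0482; rho = 0.68, exact permutation p = 0.0503, adjusted 0.151), with r = 0.51 without pigs 27 and 31 and 0.88 after centring each group. NOS3 gave r = 0.63 (exact permutation p = 0.06, adjusted 0.14; rho = 0.40, exact permutation p = 0.291, adjusted 0.408), and 0.49 without those 2 hearts. EDNRB gave r = 0.54 (exact permutation p = 0.14, adjusted 0.267; rho = 0.33, exact permutation p = 0.385, adjusted 0.45), and -0.58 without them, so its relation rested on them. ACE gave r = 0.41 (exact permutation p = 0.269, adjusted 0.353; rho = 0.48, exact permutation p = 0.194, adjusted 0.339), and 0.52 without them. After centring each group, r was 0.46 for NOS3, 0.74 for EDNRB and 0.40 for ACE. EDNRA, the receptor mainly of smooth muscle, gave r = 0.67 (exact permutation p = 0.0506, adjusted 0.133; rho = 0.62, exact permutation p = 0.0857, adjusted 0.2), 0.067 without those 2 hearts, so that its relation also rested on them, and 0.86 after centring each group. NOS2 reached r = 0.47 (exact permutation p = 0.204, adjusted 0.334; rho = 0.42, exact permutation p = 0.27, adjusted 0.404), with 0.35 without those hearts and 0.44 after centring. AGTR1 had the lowest r of the 7 members, 0.36 (exact permutation p = 0.339, adjusted 0.396, and rho = 0.35, exact permutation p = 0.359, adjusted 0.443), with 0.52 without them and 0.23 after centring. Members and markers were both in TPM as deposited, and pigs 27 and 31 had the lowest median-of-ratios factors (0.7277 and 0.7715). The relations to the markers were not run on scaled levels. Differences between the members' correlations were not tested.

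**Figure D4:**
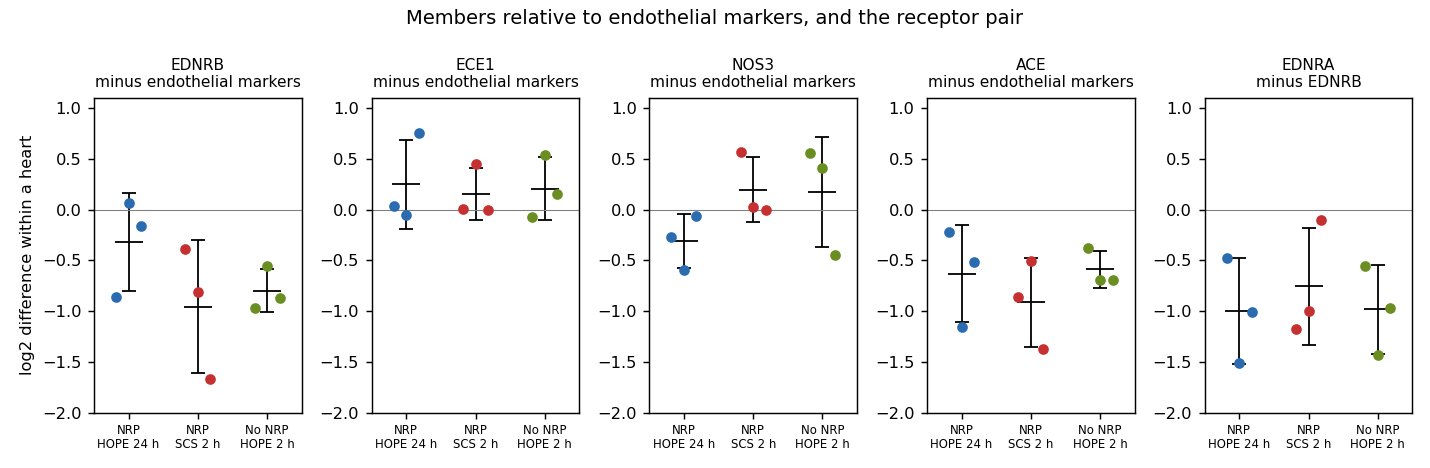
Log2 difference within a heart (vertical axes) of EDNRB, ECE1, NOS3 and ACE minus the mean of 12 endothelial markers, and of EDNRA minus EDNRB, by group; points are hearts, bars and whiskers the mean ± SD of 3 hearts, and the grey line marks 0. NOS3 is at -0.59 to -0.06 in the Group 1 hearts and at -0.01 to 0.57 in the Group 2 hearts, and EDNRA minus EDNRB is below 0 in every heart.

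ECE1 and NOS3 also differed in their order between hearts. ECE1 minus NOS3, on the log2(TPM + 1) scale, was 0.31, 0.54 and 0.82 in Group 1, -0.56, 0.42 and 0.01 in Group 2, and -0.64, 0.13 and 0.60 in Group 3. The hearts in which NOS3 was the higher gene were pig 24 of Group 2 and pig 31 of Group 3.

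The other genes of the 3 systems were counted from lists written by hand. Of 5 further endothelin genes, 2 were listed and 1 was tested: MME, the peptidase neprilysin that degrades endothelin and other peptides, lay between 4.05 and 10.5 TPM, with an estimate of 0.25 in Group 1 against Group 2 (limma, unadjusted p = 0.432) that was 0.018 without pig 28. The Kell peptidase gene KEL was listed at 0 in 5 hearts.

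Of 20 further nitric oxide genes, 14 were listed and 13 tested, and 0 passed an adjusted limma p of 0.05 in any comparison. At an unadjusted limma p under 0.05, 0 of the 13 counted in Group 1 against Group 2, 1 in Group 3 against Group 2 (lower) and 2 in Group 1 against Group 3 (1 higher, 1 lower). Of all genes tested, 4.97% had such a p in the first of these comparisons, 4.65% had it with a lower level in the second, and 2.78% were higher and 3.23% lower in the last. SLC7A1, a transporter of arginine, the substrate of nitric oxide synthases, read 12.7, 16.7 and 25.2 TPM in Group 1, 28.6, 22.1 and 10.7 TPM in Group 2, and 6.73, 11.3 and 4.83 TPM in Group 3. All Group 3 hearts were below all Group 1 hearts, and 2.97% of all genes tested were likewise higher in Group 1 without overlap. Against Group 2, pig 33 was above the lowest heart, pig 29. The estimate was -1.28 for Group 3 against Group 2 (limma, SE 0.405, unadjusted p = 0.00703, adjusted p = 0.483) and 1.18 for Group 1 against Group 3 (limma, SE 0.405, unadjusted p = 0.0119, adjusted p = 0.619).

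NOSTRIN, which binds the endothelial synthase and takes part in its trafficking, read 15.1, 23.4 and 25.5 TPM in Group 1, 34.6, 24.5 and 39.6 TPM in Group 2, and 26.4, 43.2 and 64.7 TPM in Group 3. All Group 1 hearts were below all Group 3 hearts, by 25.5 against 26.4 TPM at the nearest, and overlapped with Group 2. The estimate for Group 1 against Group 3 was -0.98 (limma, SE 0.355, unadjusted p = 0.0158, adjusted p = 0.67). NOSIP, another protein that binds this synthase, was also lower in Group 1 than in Group 3 without overlap, at 10.5 to 17 against 18 to 22.5 TPM (limma estimate -0.53, unadjusted p = 0.0824). Of all genes tested, 4.51% were lower without overlap in this comparison.

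The arginases, which compete for arginine, were read as well. ARG1 was 14.9 TPM in pig 28 and between 0.365 and 5.79 TPM in the other hearts, with an estimate of 1.08 in Group 1 against Group 2 (limma, SE 0.581, unadjusted p = 0.0838) that was 0.47 without pig 28. ARG2, named after its values were seen, was higher in Group 1 (8.19 to 12.8 TPM) than in Group 2 (6.46 to 7.95 TPM) without overlap, with an estimate of 0.43 (limma, unadjusted p = 0.172) that was 0.28 without pig 30. In this comparison 2.5% of all genes tested were higher without overlap. CAV1, the caveolar protein that binds the endothelial synthase, was the most abundant gene of the list, at 82.6 to 248 TPM, and was lowest in pig 27. The soluble guanylate cyclase subunit GUCY1A1, part of the nitric oxide receptor, had an estimate of 0.48 in Group 1 against Group 2 (limma, unadjusted p = 0.224), and of 0.21 without pig 30.

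Of 14 further angiotensin genes, 10 were listed and 6 tested, and 0 had an unadjusted limma p under 0.05 in any comparison, where 4.97%, 7.22% and 6.01% of all genes tested did. AGT, the precursor of the angiotensins, read 33.5, 33.2 and 20.3 TPM in Group 1, 33.7, 33.3 and 19.7 TPM in Group 2, and 58.6, 30.4 and 37.9 TPM in Group 3. Pig 31 was the highest, the groups overlapped, and the estimate for Group 3 against Group 2 was 0.52 (limma, unadjusted p = 0.148), 0.26 without pig 31 and 0.27 without pig 29. The type 2 receptor AGTR2 and the Mas receptor MAS1 were each listed at 0 in 8 of 9 hearts.

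Of 10 genes of other vasoactive peptides, 8 were listed and 7 tested, and 0 passed an adjusted limma p of 0.05. At an unadjusted limma p under 0.05, 1 was higher in Group 1 than in Group 2 (BDKRB1), where 1.82% of all genes tested were higher at such a p and 2.5% were higher without overlap, 0 in Group 3 against Group 2, where 2.57% of all genes were higher, and 1 was lower in Group 1 than in Group 3 (APLN), where 3.23% of all genes were lower. BDKRB1, the bradykinin receptor that is induced in injured tissue, read 2.64, 13.5 and 15.6 TPM in Group 1, 0.98, 2.62 and 2.41 TPM in Group 2, and 1.73, 13.1 and 3 TPM in Group 3. Group 1 lay above Group 2 without overlap, but pig 27 at 2.64 TPM and pig 25 at 2.62 TPM nearly met, and pig 33 of Group 3 was near the upper Group 1 hearts. The estimate for Group 1 against Group 2 was 1.72 (limma, SE 0.627, 95% interval 0.38 to 3.07, unadjusted p = 0.016, adjusted p = 0.874), and it ran from 1.32 to 2.42 when single hearts were left out. The constitutive bradykinin receptor BDKRB2 was lower in Group 3 (1.53 to 5.91 TPM) than in Group 2 (6.15 to 7.22 TPM) without overlap (limma estimate -0.79, unadjusted p = 0.0701), where 10.3% of all genes tested were lower without overlap, and the estimate was -0.40 without pig 34.

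APLN, the vasodilator peptide apelin, read 0.363, 2.84 and 2.7 TPM in Group 1, 2.97, 3.24 and 4.25 TPM in Group 2, and 2.09, 4.85 and 13.6 TPM in Group 3. Group 1 was below Group 2 without overlap, as were 7.32% of all genes tested (limma estimate -0.73, unadjusted p = 0.187), and its estimate against Group 3 was -1.26 (limma, SE 0.526, unadjusted p = 0.0319, adjusted p = 0.795), with pig 27 lowest and pig 34 highest of the 9 hearts. Leaving out pig 27 gave -0.24 against Group 2, and against Group 3 the estimate was -0.77 without pig 27 and -0.66 without pig 34. RAMP1 and RAMP2, partners of the receptors for calcitonin gene-related peptide and adrenomedullin, were the most abundant of this list, with means of 196.7 and 183.4 TPM.

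**Figure D5:**
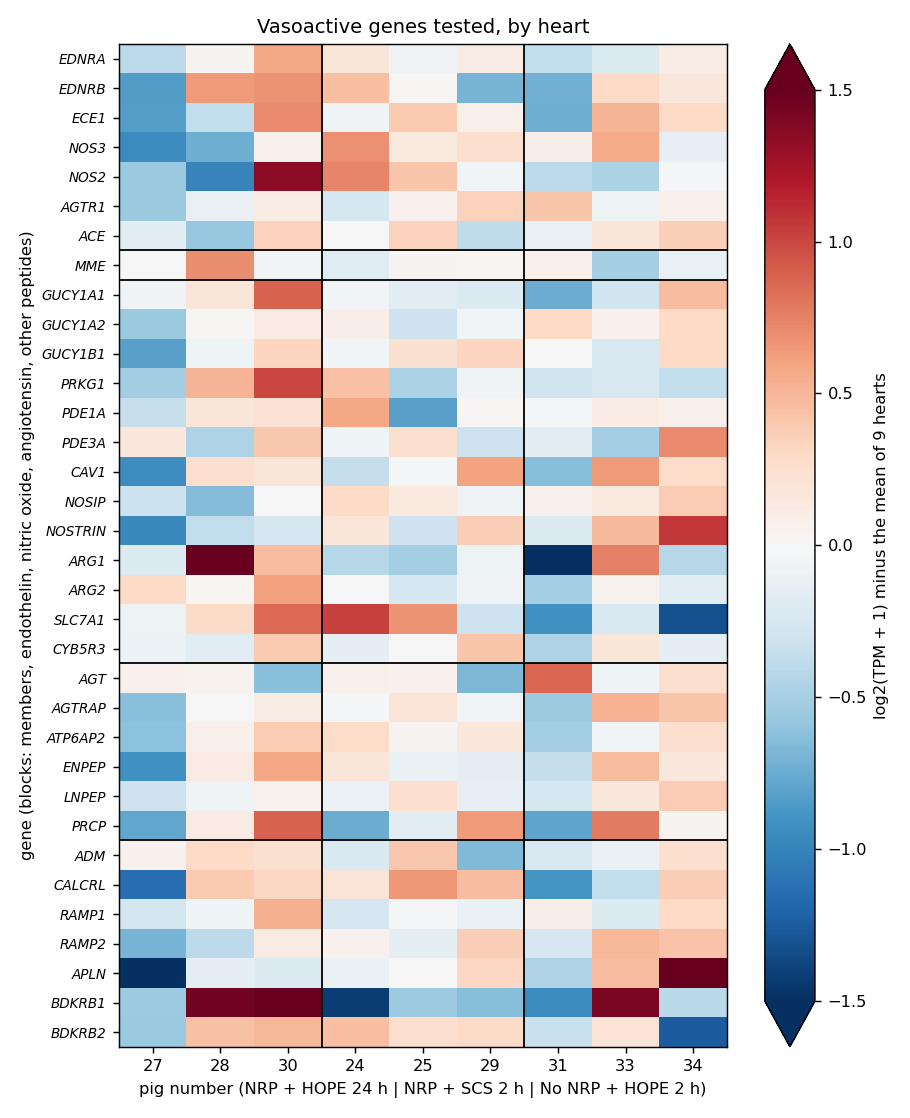
Log2(TPM + 1) minus the mean of the 9 hearts (colour, red higher and blue lower, cut at -1.5 and 1.5) for the 7 tested members and the tested genes of the 4 further lists; columns are hearts by pig number, grouped by treatment. Pig 27 is below the mean in most members, pig 30 of the same group is above it in most, and BDKRB1 is high in pigs 28, 30 and 33.

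The genes most like each member over the 9 hearts were taken among 4890 genes with a symbol and a mean of at least 5 TPM, as a description. For NOS3 they were SIGIRR (r = 0.97), PABPN1 (0.96) and CHST1 (0.94). For ECE1 they were GNB1 (0.99), VAV1 (0.98) and LYPLA2 (0.97), for EDNRA MRPL3 (0.97), YIPF2 (0.97) and SPPL3 (0.96), and for EDNRB HSPA4 (0.95), RNF26 (0.94) and ENC1 (0.94). NOS2 was nearest to RNF121 (0.97), ACE to MLEC (0.93) and AGTR1 to PGF (0.93).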

How the data were processed

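RNA from 9 hearts, 3 in each of 3 groups given by the sample labels, was sequenced by the authors after enrichment with oligo(dT) beads. Per the labels and methods, reads were demultiplexed with bcl2fastq 2.17, trimmed with Trimmomatic 0.36, mapped with STAR 2.5.2b and counted per gene with featureCounts of Subread 1.5.2, and the authors ran DESeq2 on those counts. The build used for the table is not given in the sources used here, and no coordinates are printed. The authors deposited TPM values (1000000 in total per heart over 25149 genes, 12006 without a symbol). Counts were not used here, so depth is unknown and no counting interval or floor is given. A further 9 value columns tied to no sample were not used. ERCC spike-in was added, but 0 spike-in rows were listed.

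TPM are not counts, so log2(TPM + 1) was fitted for the 11782 genes that reached 1 TPM in 3 or more hearts with limma 3.58.1 in R 4.3.3 (1 mean per group, all 9 hearts, eBayes with trend, two-sided), and p-values were adjusted by Benjamini-Hochberg per comparison, with a threshold of 0.05. Fold changes are on the log2(TPM + 1) scale, which understates changes of low genes. Differences in a single value were tested by exact permutation, two-sided, and correlations by exact permutation over all pairings (21 relations) with scipy 1.17.1 in Python 3.11.15 (numpy 2.4.6, pandas 2.3.3); figures used matplotlib 3.10.9. The limma step was tested on simulated data.

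Members were matched by the table's own gene names. Other genes could be named when they were among the 4 of their list with the largest absolute log2 fold change in a comparison or the 2 with the highest mean TPM, and KEL, AGTR2, MAS1, ARG2 and the cell type markers given by name, such as CSF3R and MYH11, were named after their values were seen. Up to 3 most alike genes per member are given. The members and lists were chosen with earlier results of these data known. Alternatives were median-of-ratios scaling, rescaling without mitochondrially encoded genes, a pseudocount of 0.1, testing every gene above 0, a fit of the 6 hearts of a comparison alone, limma array weights (statmod 1.5.0), fewer endothelial markers, and leaving out each heart. Leaving out pigs 27 and 31 together, and the marker MMRN2, were added after seeing the data. The samples of a group come from separate pigs.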

Additional observations from a re-analysis of the deposited data

How the results depend on the processing

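The count of members at an adjusted limma p under 0.05 was 0 in every comparison and alternative run. No paired analysis was possible because no pig number occurs in more than 1 group. With 3 hearts a group, the 95% intervals of the members were over 1 log2 unit wide, and the unknown depth limits the low genes NOS2, AGTR1 and NOS1. For NOS3 the adjusted limma p ranged from 0.128 to 1 for Groups 1 and 2 and from 0.111 to 1 for Groups 1 and 3, lowest with array weights in both. The number of members at an unadjusted limma p under 0.05 became 2 (Groups 1 and 2) and 1 (Groups 3 and 2) with array weights, 2 without pig 30 (Groups 1 and 2), and 0 in Groups 1 and 3 when only those 6 hearts were fitted; it was 0 in every comparison without pigs 27 and 31.

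The sign of several small differences changed, and the cause was not tested. In Groups 1 and 2, median-of-ratios scaling gave 0.13 for EDNRA and 0.026 for ACE, and leaving out pigs 27 and 31 gave 0.23 for EDNRA and 0.029 for ECE1. In Groups 3 and 2, median-of-ratios scaling gave 0.087 for EDNRB. Array weights gave 0.18 for EDNRB, 0.13 for ECE1, 0.053 for NOS3 and -0.027 for AGTR1 there, and leaving out pigs 27 and 31 gave 0.31 for EDNRB, 0.26 for ECE1 and -0.052 for AGTR1. In Groups 1 and 3, array weights gave -0.27 for NOS2. Relative to endothelial markers, ECE1 differed by -0.13 in Groups 1 and 3 with PECAM1 and TIE1 only, and NOS3 in Groups 3 and 2 by 0.035 with a pseudocount of 0.1, 0.074 with PECAM1 and TIE1 only and 0.061 without MMRN2.

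Leaving out 1 heart at a time, the following ranges included 0. In Groups 1 and 2 they were -0.26 to 0.23 for EDNRA, -0.076 to 0.73 for EDNRB, -0.74 to 0.029 for ECE1, -1.15 to 0.027 for NOS2 and -0.36 to 0.10 for ACE. In Groups 3 and 2 they were -0.32 to 0.31 for EDNRB, -0.35 to 0.26 for ECE1, -0.07 to 0.24 for AGTR1 and -0.024 to 0.34 for ACE. In Groups 1 and 3 they were -0.021 to 0.46 for EDNRA, -0.074 to 0.74 for EDNRB, -0.62 to 0.14 for ECE1 and -0.48 to 0.69 for NOS2. Relative to the endothelial markers, ECE1 ranged from -0.16 to 0.24 (Groups 1 and 2), -0.11 to 0.20 (Groups 3 and 2) and -0.21 to 0.21 (Groups 1 and 3), EDNRB from -0.20 to 0.44 and NOS3 from -0.21 to 0.29 (Groups 3 and 2), and ACE from -0.25 to 0.22 (Groups 1 and 3). EDNRA minus EDNRB ranged from -0.51 to 0.087, -0.44 to 0.10 and -0.28 to 0.24 in the 3 comparisons. All 25 sign changes of log2 fold changes among the 342 leave-one-out values, and all 13 among the 266 values of the other settings, were in members other than NOS3, except 1 with array weights in Groups 3 and 2.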

Other observations

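Red cell and smooth muscle genes were read in the same biopsies. Per the methods, the HOPE perfusate of Groups 1 and 3 held donor packed red cells, whereas Group 2 hearts lay in storage solution without perfusion. The part of this in the red cell values was not tested. The 3 erythroid genes listed of 6 (HBB, HBM and ALAS2) were higher in each Group 3 heart than in each Group 2 heart, each at an unadjusted limma p under 0.05 and none at an adjusted p under 0.05, where 2.57% of all genes tested were higher at such an unadjusted p and 4.44% were higher without overlap. HBB, the beta-globin gene, read 70.8, 132 and 78.4 TPM in Group 2, 220, 368 and 220 TPM in Group 3, and 73.5, 339 and 420 TPM in Group 1 (limma estimate for Group 3 against Group 2 1.52, unadjusted p = 0.0111, adjusted p = 0.516). Of 12 smooth muscle and pericyte markers, 10 were listed and 9 tested, and MYH11 was listed at 0 in all 9 hearts. In Group 1 against Group 3, 6 of the 9 had a negative limma estimate and 3 (CNN1, CSPG4 and MCAM, 0.40 to 0.46) a positive one. At an unadjusted limma p under 0.05, 2 were lower, ACTA2, the smooth muscle actin gene (-1.28, unadjusted p = 0.00316, adjusted p = 0.402; means of 34.4 and 77.7 TPM), and NOTCH3 (-1.04, unadjusted p = 0.0243), where 3.23% of all genes tested were lower at such a p. ACTA2 was lower without overlap, as were 4.51% of all genes tested.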
